A study of Mus musculus with 9 samples.

Results

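The HoxD cluster is a row of homeobox genes on mouse chromosome 2. Its 6 members described here, Hoxd11, Hoxd10, Hoxd9, Hoxd8, Hoxd4 and Hoxd3, were taken by gene symbol from a deposited table of 56791 genes, with their counts in all 9 libraries. They were chosen because their counts were already known to differ between the groups, so their own values are given as a description with no test. RNA was sequenced from the gastrocnemius, a calf muscle of mostly fast fibres, of female mice in 3 groups of 3 libraries. Aged GB mice received ginkgolide B (GB), a terpene lactone of the ginkgo tree that blocks the platelet activating factor receptor, at 12 mg per kg by daily oral gavage for 2 months. Aged vehicle and young vehicle mice received saline by the same route for the same time. The sample titles hold 23M for the aged vehicle and 3M for the young vehicle group, and none is given for the GB group. The labels give neither the strain nor whether replicate libraries are separate animals, so standard errors and p-values reflect a spread between libraries that could be technical.

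Hox genes encode transcription factors that record position along the body axis and the limbs. In the mouse embryo the genes of a cluster are switched on in the order in which they lie, those near the Hoxd1 end earlier and further forward, those near the Hoxd13 end later and further back. Their expression is partly kept in adult connective tissue and muscle, with a pattern that depends on where in the body the tissue lies. Polycomb proteins keep silent Hox genes repressed, trithorax proteins keep active ones transcribed, and proteins of the Pbx and Meis families bind DNA together with Hox proteins.

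The members differ in place and role. In the mouse, Hoxd11 acts with its paralogue Hoxa11 in forming the bones of the lower limb segment, and Hoxd10 acts in the identity of hindlimb motor neurons. Hoxd9 acts with other group 9 genes in the lumbosacral spine. Hoxd8 belongs to the central paralogue groups, which act in the trunk. Hoxd4 and Hoxd3 act in patterning the neck vertebrae. Hoxd11, Hoxd10, Hoxd9 and Hoxd8 follow each other without exon overlap between any pair of them, while the annotated span of Hoxd3 begins before and ends after that of Hoxd4.

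The sequences around the annotated starts of the 3 most expressed members, and of Hoxd4 for contrast, are shown because these neighbours moved unequally. Each is read 5′ to 3′ on the plus strand from 250 bases before to 50 bases after the start of the gene (RefSeq, build GRCm38.p6). Capitals mark matches on either strand to 7 short motifs, namely the E-box CACGTG, the box named CCAAT after its letters, the TATA box TATAAA, the GC box GGGCGG, the Hox core TTAATNA, the joint Pbx-Hox motif TGATTNAT and the Meis motif TGACAG. The windows are chr2:74691641-74691940 for Hoxd10, chr2:74697513-74697812 for Hoxd9, chr2:74704365-74704664 for Hoxd8 and chr2:74721728-74722027 for Hoxd4.
Hoxd10: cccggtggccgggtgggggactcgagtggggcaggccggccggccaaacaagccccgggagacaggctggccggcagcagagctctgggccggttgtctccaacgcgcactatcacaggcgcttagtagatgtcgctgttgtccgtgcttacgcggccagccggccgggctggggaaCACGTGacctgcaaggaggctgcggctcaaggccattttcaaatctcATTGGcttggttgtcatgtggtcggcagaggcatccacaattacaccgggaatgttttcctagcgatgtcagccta
Hoxd9: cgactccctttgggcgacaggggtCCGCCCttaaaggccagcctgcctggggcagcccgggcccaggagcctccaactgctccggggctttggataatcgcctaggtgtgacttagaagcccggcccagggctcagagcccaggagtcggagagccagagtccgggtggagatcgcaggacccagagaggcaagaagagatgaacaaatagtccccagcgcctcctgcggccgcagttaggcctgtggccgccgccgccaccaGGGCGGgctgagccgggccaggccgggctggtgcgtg
Hoxd8: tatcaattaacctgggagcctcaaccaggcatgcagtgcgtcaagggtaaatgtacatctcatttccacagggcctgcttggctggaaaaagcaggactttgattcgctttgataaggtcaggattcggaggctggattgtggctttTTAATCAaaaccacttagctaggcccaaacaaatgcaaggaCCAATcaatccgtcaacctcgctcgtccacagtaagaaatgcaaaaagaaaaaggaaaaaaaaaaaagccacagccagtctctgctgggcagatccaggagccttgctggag
Hoxd4: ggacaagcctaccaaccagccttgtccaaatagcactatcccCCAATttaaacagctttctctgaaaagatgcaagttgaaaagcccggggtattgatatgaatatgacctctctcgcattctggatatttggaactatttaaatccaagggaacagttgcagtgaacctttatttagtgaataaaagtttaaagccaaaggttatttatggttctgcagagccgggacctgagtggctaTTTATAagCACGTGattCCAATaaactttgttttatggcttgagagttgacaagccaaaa

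The windows of the 3 genes that moved together were not alike. The Hoxd10 and Hoxd9 windows held 22 and 20 CpG sites at a GC content of 62.7% and 68.3%. The Hoxd8 window held 6 CpG sites at 46.7%, and that of Hoxd4 held 4 at 39.7%. Over 32851 windows of the same length at gene starts, the median was 7 CpG sites and a GC content of 52.7%. No motif was shared by the Hoxd8, Hoxd9 and Hoxd10 windows. The CACGTG match was in the Hoxd10 and Hoxd4 windows and in 7.15% of all windows. The TTAATNA match was in the Hoxd8 window and in 10.9% of all. The CCAAT motif matched in the windows of Hoxd10, Hoxd8 and Hoxd4 and in 37.4% of all, and GGGCGG matched in that of Hoxd9 and in 35.7% of all. TATAAA matched in the Hoxd4 window and in 13.6% of all. The Pbx-Hox motif TGATTNAT, found in 3.22% of all windows, and the Meis motif TGACAG, found in 19.2%, matched in none of these 4. No 2 matches overlapped in them. A match is a description of letters and says nothing of binding.

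Over the whole table the 3 GB libraries differed from the 6 vehicle libraries. They held 39478427 to 44294097 counts and 18678 to 19362 genes with a count, against 52068522 to 54095457 counts and 22868 to 23045 genes in aged vehicle and 51543383 to 61680520 counts and 22616 to 24185 genes in young vehicle libraries. With edgeR, 53.2% of the 17534 genes tested were called (adjusted p under 0.05) in aged GB against aged vehicle, 24.4% higher and 28.8% lower. When libraries were scaled by their totals instead of TMM factors, 2030 genes were called higher and 8421 lower, and the median log2 fold change over the table was -0.62, against -0.05 with TMM. In aged against young vehicle 8.6% of genes were called, 4.32% higher and 4.28% lower, with a median of -0.0022. The labels name no batch, so treatment and library preparation cannot be told apart in the GB group. Levels are given as CPM, counts relative to the TMM-scaled library size, and log2 fold changes come from the same edgeR fit.

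Hoxd8, Hoxd9 and Hoxd10 were low in aged vehicle muscle and high in both other groups, while Hoxd4 did not follow them and Hoxd3 and Hoxd11 were at or near 0. Hoxd8 averaged 47.7 ± 2.70 CPM in aged GB, 4.20 ± 0.550 CPM in aged vehicle and 46.9 ± 3.39 CPM in young vehicle muscle (SD, n = 3 each). Hoxd9 averaged 32.6 ± 5.11 CPM in aged GB, 1.28 ± 0.0830 CPM in aged vehicle and 22.6 ± 1.59 CPM in young vehicle muscle. Hoxd10 averaged 7.18 ± 1.07 CPM in aged GB, 0.0985 ± 0.0865 CPM in aged vehicle and 3.66 ± 1.08 CPM in young vehicle muscle. In bulk tissue, fewer cells that express a gene and less of its RNA per cell cannot be told apart.

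The counts behind these levels are given here library by library. The members were picked on these values, so nothing is read from a lack of overlap between groups. The share of all genes without overlap was not computed. By the different measure of edgeR calls, 24.7% of all genes were higher in aged GB than in young vehicle muscle. Hoxd8 had 1477, 1691 and 1423 counts in the aged GB libraries, 233, 235 and 292 in the aged vehicle libraries and 3344, 2483 and 3359 in the young vehicle libraries. All 3 aged vehicle libraries were below every other library, and on the CPM scale the aged GB range of 45.5 to 50.8 overlapped the young vehicle range of 43.1 to 49.4. Hoxd9 had 1203, 942 and 978 counts with aged GB, 74, 85 and 72 with aged vehicle and 1616, 1199 and 1603 with young vehicle. Its aged GB libraries, at 28.3 to 38.2 CPM, were also above the young vehicle libraries, at 20.8 to 23.9 CPM. Hoxd10 had 241, 264 and 186 counts with aged GB, 2, 4 and 12 with aged vehicle and 286, 139 and 302 with young vehicle. Its aged GB libraries, at 5.95 to 7.92 CPM, did not overlap the young vehicle libraries, at 2.41 to 4.35 CPM.

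**Figure D1:**
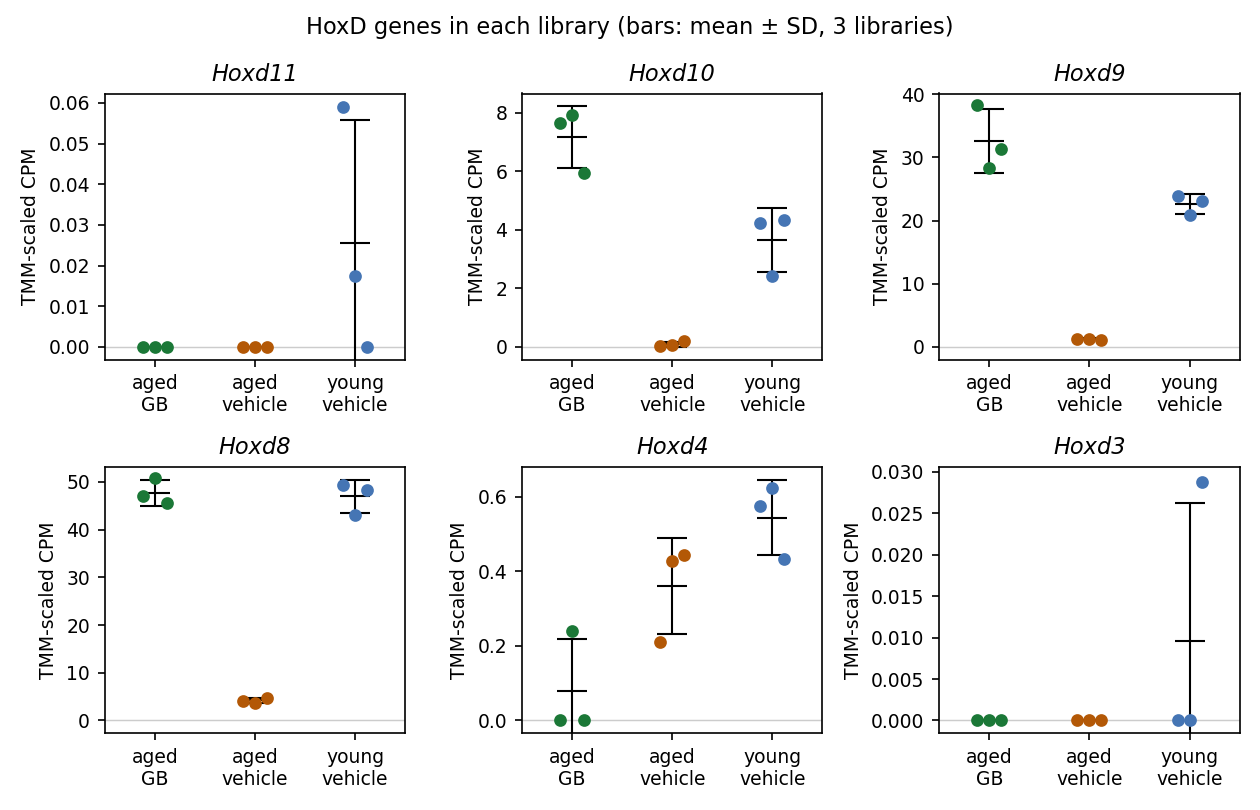
TMM-scaled CPM (vertical axes, each panel with its own linear scale) of the 6 HoxD members in the 9 libraries. Points are libraries grouped as aged GB, aged vehicle and young vehicle, and bars give the mean and SD of 3 libraries. Hoxd8, Hoxd9 and Hoxd10 were lowest in every aged vehicle library, and Hoxd3 and Hoxd11 had counts in young vehicle libraries alone.

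The other 3 members had few counts. Hoxd4 had 0, 8 and 0 counts in the aged GB libraries, 12, 27 and 27 in the aged vehicle libraries and 39, 36 and 30 in the young vehicle libraries. Its range with aged GB, 0 to 0.240 CPM, overlapped that with aged vehicle, 0.211 to 0.443 CPM, and the aged vehicle range overlapped that with young vehicle, 0.432 to 0.625 CPM. Hoxd11 had 4 and 1 counts in young vehicle replicates 1 and 2 and 0 counts in the other 7 libraries. Hoxd3 had 2 counts in young vehicle replicate 3 and 0 in the other 8 libraries. A group total of 0 allows a level of up to 0.0312 CPM with aged GB and 0.0166 CPM with aged vehicle (3 counts over the group, counting error only). At this depth no difference between the groups was detectable for Hoxd3 or Hoxd11, and for Hoxd3 exon overlap is a further limit (below).

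Between aged and young vehicle muscle, the size of the difference grew along the cluster towards Hoxd10. Hoxd8 had a log2 fold change of -3.48 ± 0.12 (SE), Hoxd9 of -4.14 ± 0.15 and Hoxd10 of -5.17 ± 0.45. In mean CPM the young vehicle level was 11.2 times the aged vehicle level for Hoxd8, 17.7 times for Hoxd9 and 37.2 times for Hoxd10. Hoxd4, on the other side of Hoxd8, had -0.59 ± 0.84, less than its error. The differences between members were not tested. The groups did not overlap for these 3 members, which were picked on this contrast, so nothing is read from that. The share of all genes without overlap was not computed. By the different measure of edgeR calls, 4.28% of all genes were lower. Counted from the most negative, the fold changes of Hoxd10, Hoxd9 and Hoxd8 stood at places 35, 65 and 91 among 17534 genes. The Hoxd10 value rests on few counts: without aged vehicle replicate 3, which held 12 of its 18 counts in that group, the log2 fold change was -6.13. Without aged vehicle replicate 1 it was -4.80, beside -4.16 for Hoxd9.

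Aged GB against aged vehicle muscle gave the same order of sizes with the opposite sign. These 2 contrasts share the aged vehicle libraries, so a low level there enters both. Hoxd8 had a log2 fold change of 3.51 ± 0.12 (SE), Hoxd9 of 4.67 ± 0.15 and Hoxd10 of 6.14 ± 0.46. In mean CPM, aged GB levels were 11.4, 25.6 and 72.9 times the aged vehicle levels for Hoxd8, Hoxd9 and Hoxd10. For all 3 the groups did not overlap, from which nothing is read either. By edgeR calls, again a different measure, 24.4% of all genes were higher. They stood at places 104, 46 and 16 from the most positive among 17534 genes. Scaled by library totals, the values were 2.94, 4.11 and 5.57. Without aged vehicle replicate 3 the Hoxd10 value was 7.09, and without aged vehicle replicate 1 it was 5.76. Hoxd4 had -2.11 ± 1.0, and its only counts with GB came from replicate 2.

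Fold changes between aged GB and aged vehicle libraries varied with gene length over the whole table. The median was 0.59 for the 1279 genes of 1500 to 2000 bases, the class of Hoxd10, 0.40 for the 1334 genes of 2000 to 2500 bases, the class of Hoxd9, and 0.21 for the 1400 genes of 2500 to 3000 bases, the class of Hoxd8. With an offset for gene length, the log2 fold changes of Hoxd8, Hoxd9 and Hoxd10 were 3.27, 4.24 and 5.61, still in the same order. In aged against young vehicle muscle the same length classes had medians of -0.01, -0.03 and -0.04.

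Aged GB muscle was near young vehicle muscle in Hoxd8 and above it in Hoxd9 and Hoxd10. Hoxd8 had a log2 fold change of 0.02 ± 0.11 (SE), Hoxd9 of 0.53 ± 0.13 and Hoxd10 of 0.97 ± 0.33. Hoxd4 had -2.70 ± 1.0, and its aged GB libraries lay below every young vehicle library. In this contrast 53.6% of all genes were called, 24.7% higher and 29% lower, and no call is given for the members, since their values chose them. The sign for Hoxd9 depended on the scaling: by library totals the values were -0.54 for Hoxd8, -0.03 for Hoxd9 and 0.41 for Hoxd10. With the length offset they were -0.17, 0.13 and 0.45.

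**Figure D2:**
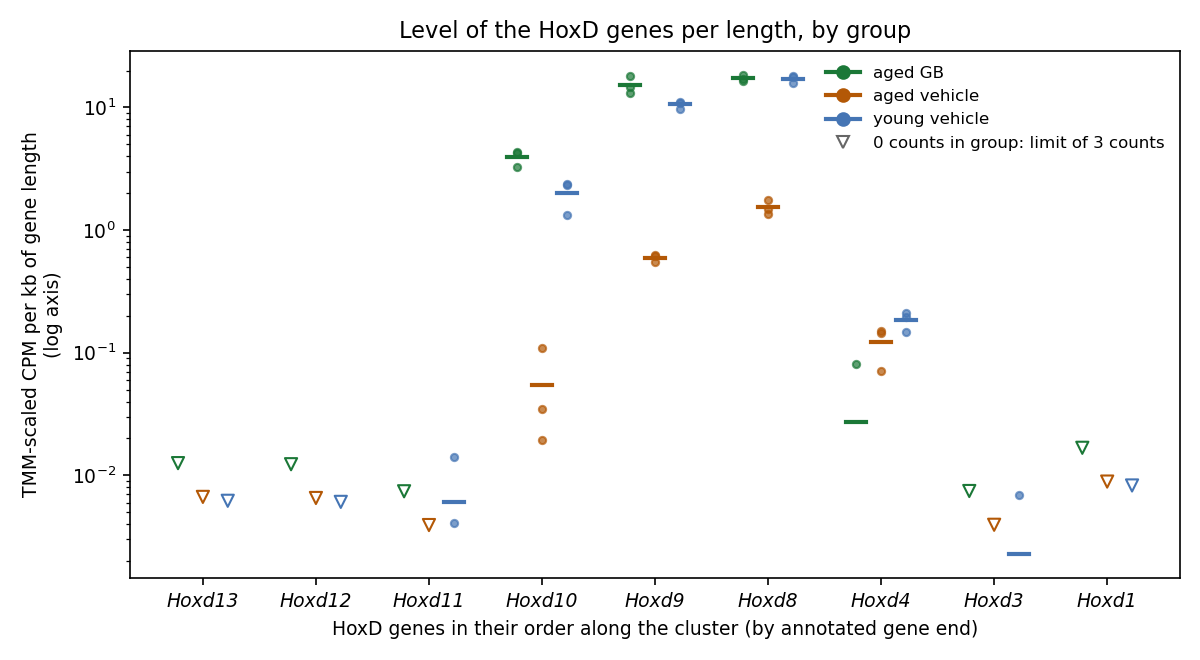
Level of the 9 HoxD protein-coding genes in TMM-scaled CPM per kilobase of gene length on a log axis, ordered along the cluster by annotated gene end, for aged GB, aged vehicle and young vehicle muscle. Points are libraries with a count and bars are means of 3 libraries (libraries at 0 have no point), and open triangles give the limit of 3 counts for a group with none. Hoxd8 and Hoxd9 were the highest in every group, and Hoxd1, Hoxd12 and Hoxd13 had no count.

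Divided by gene length, the members kept one order of level in each group, Hoxd8 above Hoxd9 above Hoxd10. Hoxd8 was at 17.4, 1.53 and 17.1 CPM per kilobase in aged GB, aged vehicle and young vehicle muscle. Hoxd9 was at 15.3, 0.597 and 10.6 CPM per kilobase in the same groups. Hoxd10 was at 3.95, 0.0542 and 2.02 CPM per kilobase. With aged GB the Hoxd8 and Hoxd9 means lay within 1 SD of the Hoxd9 libraries of each other, so these neighbours in the order did not differ beyond their spread. In aged GB replicate 1 the order was reversed, with Hoxd9 at 17.9 and Hoxd8 at 17.1 CPM per kilobase. In aged vehicle muscle Hoxd4, at 0.122 CPM per kilobase, was above Hoxd10, with an SD of 0.0439 for Hoxd4 and 0.0477 for Hoxd10.

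Ratios of counts within a library do not depend on how libraries are scaled. Per Hoxd8 count there were 0.557 to 0.814 Hoxd9 counts with aged GB, 0.247 to 0.362 with aged vehicle and 0.477 to 0.483 with young vehicle. Per Hoxd8 count there were 0.131 to 0.163 Hoxd10 counts with aged GB, 0.00858 to 0.0411 with aged vehicle and 0.0560 to 0.0899 with young vehicle. For both ratios the 3 groups did not overlap, and the order was aged GB, young vehicle, aged vehicle. The ratios are made of the counts on which the members were picked, so nothing is read from that. The aged vehicle Hoxd10 ratios rest on 2, 4 and 12 Hoxd10 counts. Whether the balance of counts among the 3 genes differed between the groups was not tested. These ratios are not free of the gene-length trend of the GB libraries, since the 3 genes differ in length. With the length offset, aged GB against young vehicle gave -0.17 for Hoxd8, 0.13 for Hoxd9 and 0.45 for Hoxd10. Without the offset the log2 fold changes were 0.02, 0.53 and 0.97, so the gaps between the genes were wider. The young vehicle libraries were closest to each other in Hoxd9 per Hoxd8, while their Hoxd10 levels spread 1.80-fold between the highest and the lowest library.

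The HoxD share of all counts on Hox protein-coding genes was 31.6 to 33.0% with aged GB, 4.04 to 4.80% with aged vehicle and 29.8 to 36.0% with young vehicle. The share of HoxA was 19.0 to 20.1% with aged GB, 40.4 to 42.3% with aged vehicle and 22.4 to 26.4% with young vehicle. HoxC held 45.1 to 46.3% with aged GB, 48.2 to 50.6% with aged vehicle and 38.4 to 41.7% with young vehicle. HoxB held 1.77 to 5.42% in the 9 libraries. These shares depend on each other, so a smaller HoxD share raises the others. In level, HoxC genes and transcripts summed to 117 to 133 CPM with aged GB, 66.5 to 69.1 CPM with aged vehicle and 85.8 to 94.3 CPM with young vehicle, and those of HoxA to 50.3 to 60.4, 56.9 to 59.8 and 49.6 to 62.0 CPM. Hoxd8, Hoxd9 and Hoxd10 gave 99.7 to 100% of the HoxD counts with aged GB, 92.3 to 96.3% with aged vehicle and 99.0 to 99.4% with young vehicle. Among 39 Hox genes ranked by CPM per kilobase, Hoxd8 was at rank 2 in aged GB, 11 in aged vehicle and 2 in young vehicle muscle. Hoxd9 was at ranks 3, 17 and 3 and Hoxd10 at ranks 7, 30 and 9 in the same groups. Hoxc10, the group 10 gene of HoxC and a hindlimb gene, was at rank 1 in all 3.

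Paralogues, the genes at the same place in the other clusters, had smaller fold changes than Hoxd8, Hoxd9 and Hoxd10. The members were picked because their counts were known to differ and the paralogues were not, so nothing is read from that gap. Of 29 tested HoxA, HoxB and HoxC genes and transcripts, 2 fell in aged against young vehicle muscle, beside 4.28% of all genes, with a median log2 fold change of 0.04 for the list and -0.0022 for all genes. These were Hoxc10, at 41.1 ± 1.46 CPM with aged vehicle and 56.2 ± 3.02 CPM with young vehicle (log2 fold change -0.45 ± 0.09, edgeR adjusted p = 0.00868), and Hoxc11, at 6.18 ± 0.284 and 10.3 ± 0.845 CPM (-0.74 ± 0.16, edgeR adjusted p = 0.0138). The Hoxc11 call was lost without young vehicle replicate 2 or aged vehicle replicate 2, with an adjusted p of up to 0.0659. The group 9 and 10 genes of HoxA had log2 fold changes of -0.31 for Hoxa9 (edgeR adjusted p = 0.385) and -0.20 for Hoxa10 (edgeR adjusted p = 0.484). Hoxc9 had -0.21 (edgeR adjusted p = 0.426) and Hoxc8 -0.10 (edgeR adjusted p = 0.901). The group 3, 4 and 11 paralogues Hoxa3, Hoxa4, Hoxa11, Hoxb3, Hoxb4 and Hoxc4, with Hoxb8 and Hoxb9, had log2 fold changes of -0.81 to 0.45 and none was called. No test compared the clusters with each other.

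In aged GB against aged vehicle muscle, 10 of these 29 genes rose and 3 fell, beside 24.4% and 28.8% of all genes, with a median of 0.43 beside -0.05 for all genes. Hoxc9 rose to 27.9 ± 3.77 CPM in aged GB, against 8.67 ± 1.07 CPM in aged vehicle muscle (log2 fold change 1.68 ± 0.14, edgeR adjusted p = 6.82e-07), and its lowest aged GB library, at 24.4 CPM, was above every young vehicle library. Hoxc10 rose to 73.3 ± 7.22 CPM with aged GB, against 41.1 ± 1.46 CPM with aged vehicle (0.83 ± 0.09, edgeR adjusted p = 7.56e-06). Hoxc8 rose with a log2 fold change of 1.44 ± 0.33 (edgeR adjusted p = 0.00283). Hoxb8 (1.91, edgeR adjusted p = 0.0139), Hoxb9 (1.45, edgeR adjusted p = 0.0251) and Hoxc11 (0.51, edgeR adjusted p = 0.0182) were called, but none of these 3 calls held by library totals, where Hoxc11 was at -0.06. The Hoxb8 call was also lost without aged vehicle replicate 1 or 2, with an adjusted p of up to 0.0536. The Hoxb9 call was also lost with the length offset and without any 1 of the aged vehicle libraries or aged GB replicate 1 or 2, with an adjusted p of up to 0.0934. The Hoxc11 call was also lost with the length offset (edgeR adjusted p = 0.849), with no filter and without aged vehicle replicate 2 or aged GB replicate 3. Hoxa3 fell by 1.16 on the log2 scale (edgeR adjusted p = 0.00815). Hoxa9 (-0.05), Hoxa10 (0.03), Hoxa11 (0.16), Hoxa4 (0.47), Hoxb3 (-1.82), Hoxb4 (-0.41) and Hoxc4 (-0.24) were not called, and for Hoxa4, Hoxa9, Hoxa10 and Hoxa11 the sign changed with the scaling. Set against Hoxc10 in the same library, Hoxd8 had 0.575 to 0.730 counts per Hoxc10 count with aged GB, 0.0935 to 0.117 with aged vehicle and 0.741 to 0.936 with young vehicle.

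**Figure D3:**
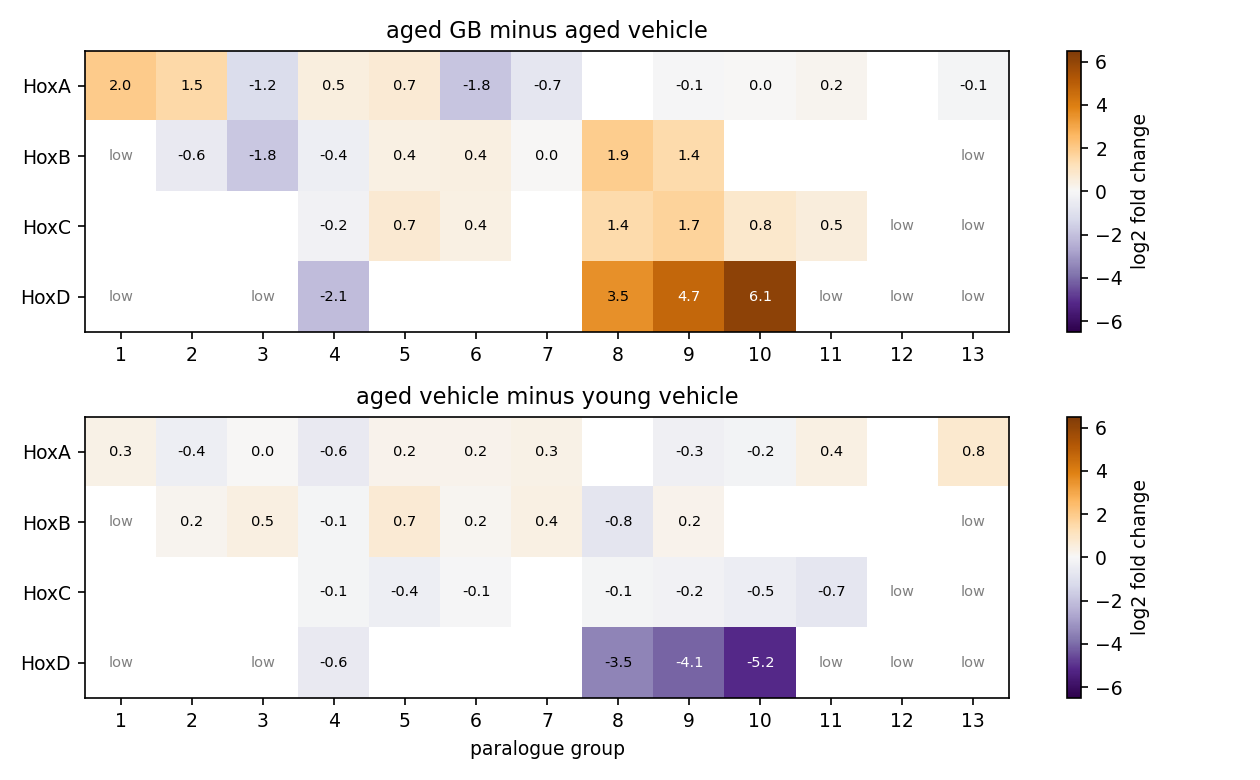
Log2 fold change (colour and printed value, edgeR) of the Hox protein-coding genes of the 4 clusters (rows) by paralogue group (columns), for aged GB minus aged vehicle (top) and aged vehicle minus young vehicle (bottom). Genes that did not pass the filter are marked low and empty cells hold no gene. Hoxd8, Hoxd9 and Hoxd10, picked because their counts were known to differ, had the largest values of either panel, positive in the top one and negative in the bottom one.

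Other transcripts of the cluster did not all follow Hoxd8, Hoxd9 and Hoxd10. Hoxd1, Hoxd12 and Hoxd13 had no count in any library. The row named Hoxd3os1, an antisense transcript, had 126, 171 and 190 counts with aged GB, 40, 59 and 38 with aged vehicle and 68, 72 and 62 with young vehicle. Its aged GB libraries were above all others and the vehicle groups overlapped in CPM. It rose to 5.07 ± 1.04 CPM in aged GB, against 0.753 ± 0.160 CPM in aged vehicle muscle (log2 fold change 2.75 ± 0.30, edgeR adjusted p = 7.42e-06), and its young vehicle level was 1.05 ± 0.182 CPM. In aged against young vehicle muscle its log2 fold change was -0.47 (edgeR adjusted p = 0.382). Haglr, a noncoding RNA next to Hoxd1, had 2 counts in 1 aged GB and 2 counts in 1 young vehicle library. The microRNA gene Mir10b had 1 count in aged vehicle and 4 in young vehicle libraries. Mature microRNAs are not measured by an mRNA library of this kind.

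Exon overlap bears on some of these counts. In the GENCODE M21 annotation of GRCm38, 1542 of 2948 exon bases of Hoxd4 lie in exons of Hoxd3 or Gm28230 on the same strand, and 347 lie opposite Hoxd3os1. Gm28230 shares 3379 of its 3527 exon bases with Hoxd3 and Hoxd4. It had 0, 0 and 0 counts with aged GB, 2, 2 and 2 with aged vehicle and 15, 5 and 10 with young vehicle. What part of these counts belongs to Hoxd3 or Hoxd4 was not tested. The use of strand in counting is not given in the sources used here, so the values of Hoxd3, Hoxd4 and Hoxd3os1 are uncertain. The symbol Hoxd3os1 is also a synonym of another noncoding gene of the cluster in RefSeq, so which transcript that row counts is uncertain too. Hoxd8 and Hoxd9 share no exon base with another gene. Hoxd10 shares 104 of 1816 bases with 1 transcript that had no count.

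Lnpk and Mtx2, which flank the cluster, were higher in aged than in young vehicle muscle, unlike Hoxd8, Hoxd9 and Hoxd10. Of the 18 tested genes of a list flanking HoxD, 3 rose in aged against young vehicle muscle, beside 4.32% of all genes, with a median of 0.23. Mtx2, a mitochondrial outer membrane gene next to Hoxd1, rose to 30.4 ± 1.08 CPM in aged vehicle, against 19.5 ± 1.60 CPM in young vehicle muscle (log2 fold change 0.64 ± 0.10, edgeR adjusted p = 0.00228). Lnpk, an endoplasmic reticulum gene on the Hoxd13 side, rose to 48.4 ± 5.80 CPM, against 32.4 ± 3.69 CPM (0.58 ± 0.12, edgeR adjusted p = 0.00958). Its call was lost without young vehicle replicate 2 (edgeR adjusted p = 0.0555). The third was Nfe2l2, an antioxidant response regulator (0.51 ± 0.13, edgeR adjusted p = 0.0301). Without young vehicle replicate 2 the list had 1 call. In aged GB against aged vehicle muscle 10 of the 18 fell, beside 28.8% of all genes, with a median of -0.41 beside -0.05 for all genes. Among them were Cir1 (-1.21), Rbm45 (-0.78), Scrn3 (-0.75) and Osbpl6 (-0.74). By library totals 17 of the 18 were called. Lnpk was at -0.60 (edgeR adjusted p = 0.00109), a call lost with the length offset (edgeR adjusted p = 0.821). Mtx2 was at -0.11 (edgeR adjusted p = 0.405). Of the 20 nearest tested genes on each side, whatever their kind, 4 rose and 1 fell in aged against young vehicle muscle, with a median of 0.10, and 5 rose and 17 fell in aged GB against aged vehicle muscle, with a median of -0.42. The 4 that rose with age were Lnpk, Mtx2, Nfe2l2 and Zfp385b (1.15, edgeR adjusted p = 0.0359). The 1 that fell with age, Gm13943, rose with GB, with log2 fold changes of -1.12 (edgeR adjusted p = 0.0358) and 1.16 (edgeR adjusted p = 0.00589). Mrpl23-ps1, the nearest tested gene on the Hoxd13 side, rose with GB by 2.06 on the log2 scale (edgeR adjusted p = 0.00191). Rps6-ps4, the tested gene next after Mtx2, rose with GB by 2.34 (edgeR adjusted p = 2.24e-07). Zfp385b, Gm13943, Mrpl23-ps1 and Rps6-ps4 were named after their values were seen.

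**Figure D4:**
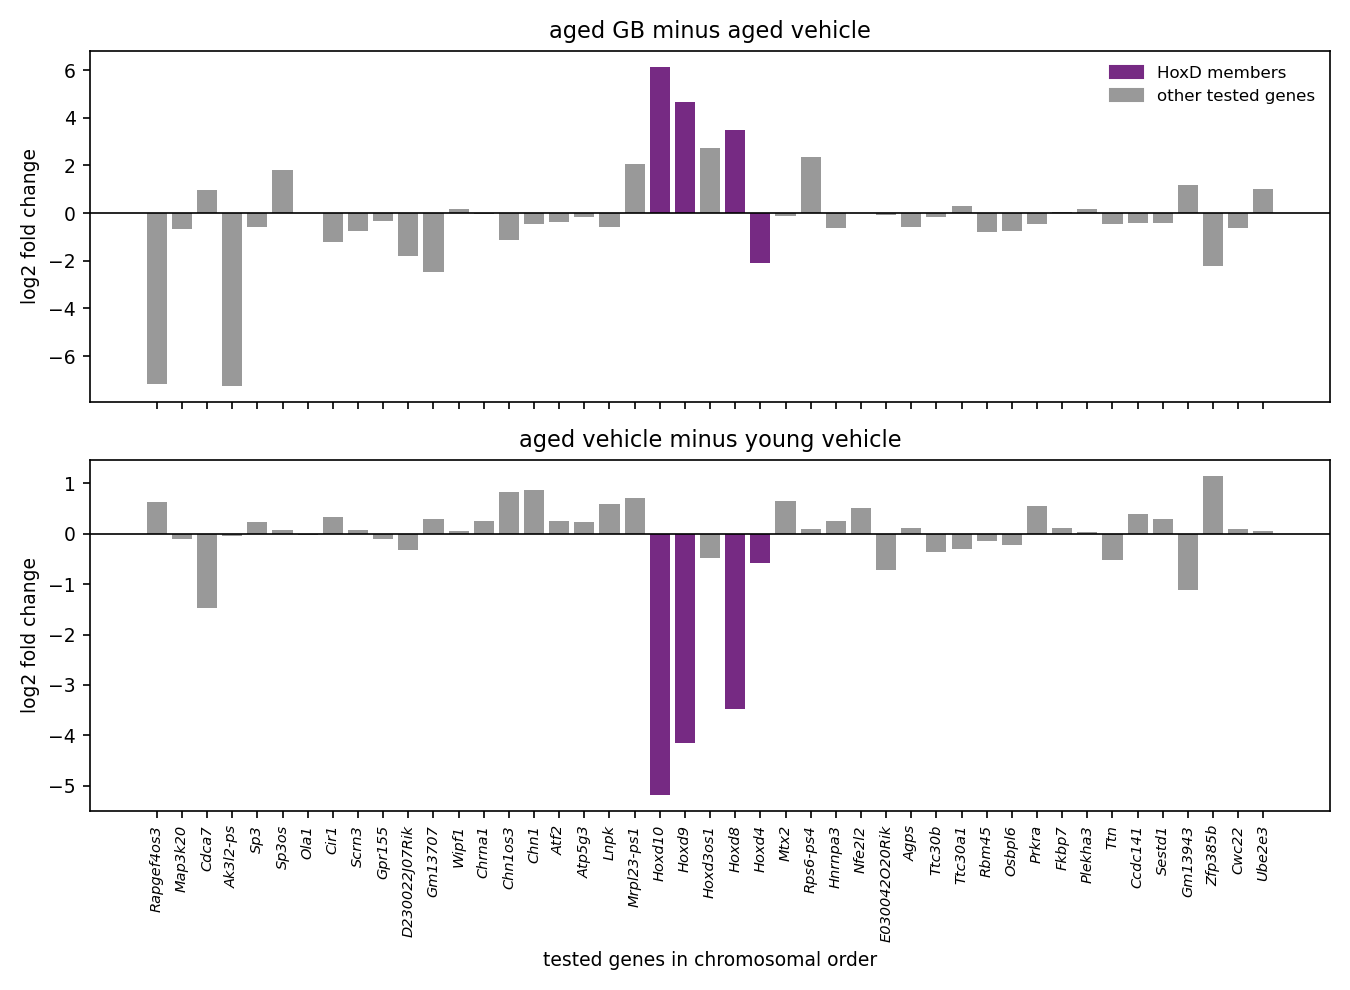
Log2 fold change (bars, edgeR) of the HoxD members that passed the filter, of Hoxd3os1 and of the 20 nearest tested genes on each side, in chromosomal order, for aged GB minus aged vehicle (top) and aged vehicle minus young vehicle (bottom), each with its own scale. Over these 40 genes the values ran between -7.25 and 2.34 in the top panel and between -1.47 and 1.15 in the bottom panel.

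Of 9 tested TALE genes, the Pbx and Meis family of Hox cofactors with their partners, 3 fell in aged against young vehicle muscle, beside 4.28% of all genes, with a median of 0.21. They were Pknox2 (-0.68 ± 0.17, edgeR adjusted p = 0.0321), the Pbx-binding gene Pbxip1 (-0.26 ± 0.07, edgeR adjusted p = 0.0487) and Meis2 (-1.84 ± 0.43, edgeR adjusted p = 0.0193), the last named after its values were seen. The count was 0 to 3 with 1 library left out, and it was 0 without young vehicle replicate 2, young vehicle replicate 3, aged vehicle replicate 1 or aged vehicle replicate 3. In aged GB against aged vehicle muscle 2 rose, Meis2 (2.16 ± 0.43, edgeR adjusted p = 0.00111) and Meis3 (1.04 ± 0.23, edgeR adjusted p = 0.00211). Calls in the other direction numbered 2, among them Pbxip1 (-0.19 ± 0.07, edgeR adjusted p = 0.0458). The median was -0.19. The Meis3 call was lost by library totals. Meis1 was at -0.51 (edgeR adjusted p = 0.131) with GB and 0.46 (edgeR adjusted p = 0.339) with age. Meis2 was low in aged vehicle muscle, as Hoxd8 was: its libraries had 0.890 to 2.05 CPM with aged GB, 0.237 to 0.361 CPM with aged vehicle and 1.01 to 1.26 CPM with young vehicle.

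Of 31 Polycomb genes, edgeR called 0 in aged against young vehicle muscle, with 3 at an unadjusted p under 0.05, while DESeq2 and limma-voom called 1 each. Of 13 trithorax and H3K27 demethylase genes it called 0, with 1 at an unadjusted p under 0.05 and 0 calls by DESeq2 or limma-voom. The same numbers, 0, 1 and 0, held for 10 genes of chromatin loops (CTCF, cohesin and its loaders). Ezh1 and Ezh2, the Polycomb enzymes that methylate H3K27, had log2 fold changes of 0.06 (edgeR adjusted p = 0.745) and -0.20 (edgeR adjusted p = 0.830). The medians were -0.04, 0.02 and 0.05 for the 3 lists, beside -0.0022 for all genes. In this contrast 8.6% of all genes were called by edgeR, and 3917 of 17534 had an unadjusted p under 0.05.

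In aged GB against aged vehicle muscle the 3 lists differed in direction, beside 24.4% of all genes called higher and 28.8% lower with a median of -0.05. Of the Polycomb genes 6 rose and 9 fell, with a median of 0.02. Rybp, a subunit of the complex that marks H2A, fell by 3.78 on the log2 scale (edgeR adjusted p = 4.19e-07), and Kdm2b, which brings that complex to CpG-rich DNA, fell by 1.86 (edgeR adjusted p = 8.38e-06). Ezh1 fell by 0.74 (edgeR adjusted p = 1.99e-05) and Ezh2 was at -0.60 (edgeR adjusted p = 0.239). Over all alternatives the Ezh1 value was -1.31 to -0.32. Of the trithorax list 8 fell and 1 rose, with a median of -0.46. The histone methyltransferase genes Ash1l and Kmt2d fell by 1.94 and 1.60. The gene-length trend of the GB libraries was not removed from these main values. Over all alternatives, the length offset among them, the values were -2.51 to -1.13 for Ash1l and -2.16 to -0.64 for Kmt2d. Both calls held in every alternative. Of the loop list 8 of 10 fell, with a median of -0.80, among them the cohesin genes Smc1a and Smc3, which fell by 1.30 and 1.14. Over all alternatives the values were -1.86 to -1.03 for Smc1a and -1.71 to -0.90 for Smc3.

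Of 15 tested factors that mark position in the limbs and the head, 3 rose and 2 fell in aged against young vehicle muscle, beside 4.32% and 4.28% of all genes, with a median of -0.03. In aged GB against aged vehicle muscle 4 rose and 5 fell, near the share of all genes called (53.2%), with a median of -0.15. Six2 and En1 were low in aged vehicle muscle: Six2, a developmental homeobox gene, averaged 12.5 ± 1.69 CPM in aged GB, 1.40 ± 0.228 CPM in aged vehicle and 14.4 ± 0.427 CPM in young vehicle muscle. Its log2 fold change was 3.16 ± 0.17 with GB (edgeR adjusted p = 1.92e-08) and -3.37 ± 0.17 with age (edgeR adjusted p = 3.56e-07). Tbx1, a T-box gene of head muscle, had the opposite shape, at 17.6 ± 2.46, 91.0 ± 4.90 and 9.27 ± 4.64 CPM in the same groups. Sim1 averaged 0.120 ± 0.208, 7.51 ± 0.849 and 0.321 ± 0.0596 CPM. The hindlimb genes Pitx1 and Tbx4 had 0.210 ± 0.0780, 0.488 ± 0.304 and 0.727 ± 0.253 CPM, and 1.22 ± 0.881, 1.86 ± 0.249 and 3.19 ± 0.798 CPM, and neither was called in the 2 contrasts. The forelimb gene Tbx5 had 0.121 ± 0.158, 0.0875 ± 0.0337 and 0.118 ± 0.0794 CPM and did not pass the filter on low counts.

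Likeness of pattern was measured as the root mean square difference of log2 CPM (prior count 2), each gene centred on its own mean, over the 9 libraries, among 12059 genes of at least 1 CPM on average (12060 for Hoxd4). Nearest to Hoxd8 were Six2, at a difference of 0.254, En1, at 0.455, and Hoxd9, at 0.496. Nearest to Hoxd9 were Tnni1, at 0.299, Hoxd8, at 0.496, and Tnnt1, at 0.507. Nearest to Hoxd10 were Tnnt1, at 0.493, Tnnc1, at 0.511, and Tnni1, at 0.539. Tnni1, Tnnt1 and Tnnc1 encode the troponin subunits of slow fibres. Nearest to Hoxd4 were Ubtd2, H1f4 and the pseudogene Ptges3-ps, at 0.487, 0.519 and 0.534. The points share 3 groups of libraries, so any gene that is low in aged vehicle and high in both other groups lies near these 3 members.

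**Figure D5:**
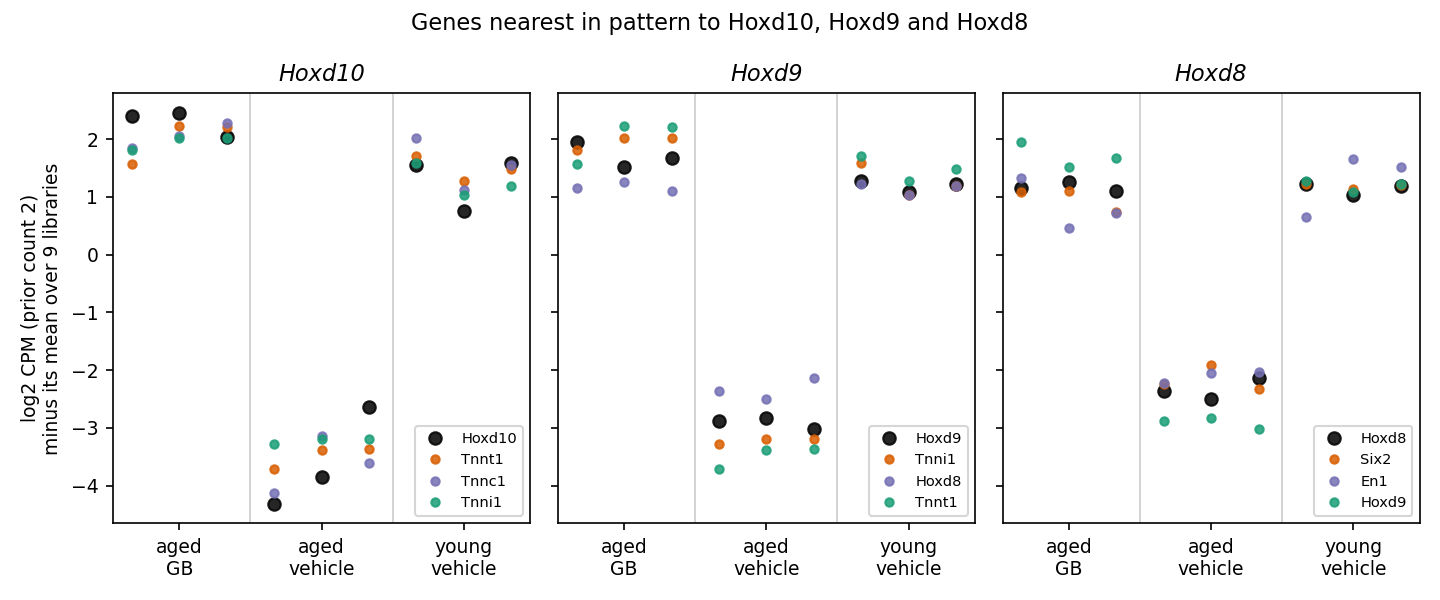
Log2 CPM (prior count 2) minus the mean over 9 libraries, for Hoxd10, Hoxd9 and Hoxd8 (black) and the 3 genes nearest to each (colours). Each point is 1 gene in 1 of the aged GB, aged vehicle and young vehicle libraries, in replicate order within a group. In each panel all 4 genes were below their mean in the 3 aged vehicle libraries and above it in the other 6.

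Slow fibre genes moved with Hoxd8, Hoxd9 and Hoxd10. Of 10 slow fibre markers, 9 fell in aged against young vehicle muscle, beside 4.28% of all genes, with a median of -3.87. In aged GB against aged vehicle muscle 9 rose and 1 fell, beside 24.4% and 28.8% of all genes, with a median of 2.99. The 10 markers summed to 1496 to 1919 CPM with aged GB, 196 to 271 CPM with aged vehicle and 1735 to 2404 CPM with young vehicle. None of the 10 was at 0 in any library. The slow myosin gene Myh7 differed from Hoxd8 between the aged GB and young vehicle groups: it had 30.4 to 45.3 CPM with aged GB, 2.11 to 5.42 CPM with aged vehicle and 293 to 553 CPM with young vehicle. Myl2, a slow myosin light chain gene, had 390 to 499 CPM, 1.71 to 5.15 CPM and 199 to 244 CPM in the same groups. The part of fibre makeup, or of the place in the muscle from which tissue was taken, in the HoxD values was not tested.

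Markers of other tissues were measured beside the members. Over all genes, 4.32% were called higher and 4.28% lower in aged against young vehicle muscle. In aged GB against aged vehicle muscle 24.4% were called higher and 28.8% lower. Every count below stands beside these shares. The 10 fast and pan-muscle genes summed to 167640 to 196710 CPM with aged GB, 117300 to 129640 CPM with aged vehicle and 147590 to 158820 CPM with young vehicle, so the defining genes of the labelled tissue were abundant in every library. In aged against young vehicle muscle 2 of these rose and 4 fell, and with GB 5 rose and 3 fell. Among 12 fibroblast markers, calls with age were 1 higher and 3 lower and calls with GB 6 higher and 5 lower, with sums of 903 to 1130, 927 to 1169 and 1022 to 1850 CPM in aged GB, aged vehicle and young vehicle libraries. Among 8 tendon markers 3 fell with age, while with GB the calls were 1 higher and 6 lower, with sums of 70.1 to 121, 213 to 325 and 350 to 616 CPM in the same groups. Of 7 Schwann cell markers 3 fell with age and 5 rose with GB, with sums of 121 to 196, 76.8 to 87.0 and 166 to 328 CPM. Of 8 satellite cell markers 2 fell with age, while with GB the calls were 2 higher and 1 lower, with sums of 74.8 to 88.5, 63.0 to 83.7 and 78.9 to 83.5 CPM. Of 8 smooth muscle and pericyte markers 4 rose with age, while with GB the calls were 1 higher and 5 lower, with sums of 437 to 500.0, 731 to 838 and 396 to 419 CPM. Of 8 endothelial markers 3 rose with age, while with GB the calls were 1 higher and 6 lower, with sums of 323 to 388, 630 to 649 and 426 to 451 CPM. No marker of these 7 lists was at 0 in any library. Some of these counts rest on single libraries. With 1 library left out, the fibroblast count with age was 0 to 5, and it was 0 or 1 without aged vehicle replicate 1, 2 or 3, young vehicle replicate 2 or 3 or aged GB replicate 2. The satellite cell count with age was 0 to 2, and 0 or 1 without any 1 of the 6 vehicle libraries, and with GB it was 2 to 5, with 5 without aged GB replicate 1. The Schwann cell count with age was 1 to 4, with 1 without aged vehicle replicate 3, and with GB 2 to 5, with 2 without aged GB replicate 1 and 3 without aged GB replicate 2. The endothelial count with age was 3 to 5, with 5 without aged GB replicate 1. The part of these tissues in the HoxD values was not tested.

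Skin markers were uneven within the young vehicle group. The 6 markers summed to 1.97 to 4.09 CPM with aged GB, 0.827 to 2.02 CPM with aged vehicle and 3.49 to 84.2 CPM with young vehicle. Of the 3 that passed the filter 1 fell with age, beside 4.28% of all genes. Without young vehicle replicate 1 all 6 were called with age and 2 with GB. Krt5, Krt1 and Dsg1a were at 0 in every aged GB and aged vehicle library and in young vehicle replicate 1. In that young vehicle library Hoxd8 was at 49.4 CPM and Hoxd9 at 23.9 CPM, against 43.1 and 48.3 CPM, and 20.8 and 23.1 CPM, in the other 2 young vehicle libraries.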

How the data were processed

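Total RNA from gastrocnemius was made into libraries with a KAPA mRNA kit, per the labels' protocols. Tools listed by the submitters' processing notes are FastQC, HISAT2, SAMtools and DESeq2, with no version, and the builds listed are mm10 and GRCm39. Which program counted reads, with which annotation and with or without strand, is not given in the sources used here. The deposited values are whole-number raw counts for 56791 genes in 9 libraries, with a gene length. In a check, 20 of 21 genes of the HoxD region had the merged exon length of GENCODE M21.

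From these, edgeR 4.0.16 (R 4.3.3) fitted 1 robust quasi-likelihood model to the 9 libraries, with TMM scaling, after filterByExpr with a minimum count of 10 and a minimum total of 15 had left 17534 genes. Two-sided p-values were adjusted over these genes (Benjamini-Hochberg), with calls at an adjusted p under 0.05. SE was computed as the absolute log2 fold change over the square root of F. Of the 6 members, 4 passed the filter. CPM per kilobase uses the table's length. The procedure was tested on simulated counts. Replicates differed beyond sampling noise. Chi-square per degree of freedom was 15.2 to 17.1 between replicates 2 and 3 of a group, and 30.8 to 54.6 in pairs that held replicate 1. The cause was not tested.

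The members, the gene lists and the tests were chosen with earlier results of these data known. The naming rule took all members, other HoxD transcripts with a count, tested paralogues of groups 3, 4, 8, 9, 10 and 11, up to 4 called genes per list and comparison with the largest fold changes and at least 2 CPM in the higher group, 14 genes whatever their values, and the 3 genes nearest in pattern. Some genes so taken are not reported here. Alternatives were library totals, upper-quartile and RLE factors, a length offset (lowess, span 0.3), other filters, DESeq2 1.42.0, limma 3.58.1 (voom), fits of 2 groups, the replicate number as a block, an adjusted p under 0.01, and leaving out each library. Sequences are from RefSeq GRCm38.p6. Since the table's build is not settled, no coordinate is taken from it.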

Additional observations from a re-analysis of the deposited data

How the results depend on the processing

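Hoxd8, Hoxd9 and Hoxd10 kept their sign in aged GB against aged vehicle and in aged against young vehicle muscle under every alternative run. With age the log2 fold changes were -3.59 to -3.40 for Hoxd8, -4.21 to -4.09 for Hoxd9 and -6.13 to -4.80 for Hoxd10. Against young vehicle, Hoxd9 with aged GB was at -0.027 by library totals. Without GB replicate 2, which held all 8 of its GB counts, Hoxd4 had fitted values of -7.32 against aged vehicle and -7.90 against young vehicle, which depend on the prior count and are no bounds. Deviations of same-numbered libraries from their group means had correlations of -0.03 to 0.06. With 3 libraries per group this cannot decide whether the numbers pair them. With the replicate number as a block, 1312 genes were called with age, 8958 with aged GB against aged vehicle and 9025 against young vehicle, and the cofactor calls with age numbered 1. Genes called with age numbered 2410 by DESeq2, 650 at an adjusted p under 0.01 and 749 to 2010 with 1 library left out (866 without young vehicle replicate 2, 749 without young vehicle replicate 3, 935 without aged vehicle replicate 2 and 823 without aged vehicle replicate 3). With aged GB they numbered 8217 to 9512 against aged vehicle and 8117 to 9554 against young vehicle. Calls in HoxA, HoxB and HoxC with age numbered 4 by DESeq2, 1 at an adjusted p under 0.01 and 1 to 3 with 1 library left out. With GB they numbered 7 with the length offset, 6 at an adjusted p under 0.01 and 8 to 13 with 1 library left out. Calls in the flanking list numbered 17 by library totals with GB, and 1 to 3 with age when 1 library was left out. Cofactor calls numbered 8 by library totals with GB. With age they numbered 1 with no filter, 0 at an adjusted p under 0.01 and 0 to 3 with 1 library left out. Polycomb calls with age numbered 1 by DESeq2, by limma-voom and in the fit of 2 groups, and 0 to 1 with 1 library left out. Signs changed for Hoxd9 (above), for Hoxc11, which was called with GB, and for genes that were not called in the main fit. Calls were also gained: with GB, Hoxa9, Hoxb3, Hoxc4, Meis1, Pitx1, Ezh2 and Mtx2 were called under some alternatives. With GB, library totals gave Hoxa4 -0.0805, Hoxa10 -0.533, Hoxa11 -0.401 and Hoxc11 -0.0584, and Hoxa10 was called lower there (edgeR adjusted p = 0.0106). The length offset gave Hoxa4 -0.151, Hoxa9 0.195, Hoxa10 -0.081, Hoxa11 -0.226 and Meis1 0.122. Upper-quartile factors gave Hoxa9 0.0332 with GB and Hoxa3 -0.0064 with age, and no filter gave Hoxa10 -0.0368 with GB. With 1 library left out, the GB values ranged over -0.119 to 0.182 for Hoxa10, -0.0612 to 0.329 for Hoxa11, -0.260 to 0.0848 for Hoxa9 and -1.29 to 0.0315 for Hoxb4, and the age values over -0.0689 to 0.0986 for Hoxa3, -0.596 to 0.203 for Hoxb4 and -0.289 to 0.0646 for Hoxc8. The causes were not tested. Counts of 0 to 12 limit Hoxd3, Hoxd11 and the aged vehicle level of Hoxd10.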
